A study of Mus musculus with 6 samples.

Results

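Quiescence and stemness transcription factors are the regulators that resting and self-renewing T cells express at high levels. The 8 genes described here, Tcf7, Lef1, Bach2, Satb1, Foxp1, Foxo1, Foxo3 and Id3, were taken by name as factors of resting T cells. The rule for them uses no measured value, but the list was drawn up with earlier results of these data known. All 8 were among the 13623 genes of the count table, and all 8 passed the filter on low counts. They were measured by mRNA sequencing in regulatory T cells (Tregs) from the liver of mice 14 months old. Altre is a long non-coding RNA found in Tregs. The labels give 3 libraries of genotype Altre WT (wild type) and 3 of genotype Altre knockout, with no treatment in either. They do not say in which cells the gene was deleted, how the cells were sorted, or whether each library is a separate animal. The p-values therefore cover the spread between these libraries alone, which may be technical. The comparison asks how transcripts of aged liver Tregs differ without Altre. The transcript of Altre itself was not analysed here.

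A T cell that leaves the cell cycle keeps its growth and effector programmes shut. TCF1 (the product of Tcf7) and LEF1 bind DNA through an HMG box and can recruit beta-catenin or Groucho (TLE) corepressors. FOXO1 and FOXO3 are forkhead activators held out of the nucleus when AKT phosphorylates them. BACH2 represses effector genes at sites shared with AP-1, SATB1 organises chromatin loops, FOXP1 restrains the exit from quiescence, and ID3 binds E proteins and keeps them off DNA. In Tregs, resting lymphoid cells express these factors more strongly than the effector Tregs found in tissues.

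Library totals over the listed genes ran from 25315425 to 30870786 counts, and the lowest count of any of the 8 factors in any library was 318 (Bach2). Levels are given in CPM, that is, counts divided by a scaled library size and brought to a common unit. The labelled cell type was checked by its markers: Foxp3 averaged 79.2 ± 7.91 CPM in wild type against 108 ± 32.5 CPM in knockout (SD, n = 3), and Cd3e averaged 1439 and 1562 CPM. The B cell marker Ms4a1 averaged 1.12 and 2.55 CPM, while Ighm averaged 3027 and 2788 CPM. Over all 12789 genes tested, 0 passed an adjusted p of 0.05 (edgeR quasi-likelihood test, Benjamini-Hochberg), a share of 0%, and 744 had an unadjusted p under 0.05. At the same threshold DESeq2, with its own scaling and filter (13325 genes), called 49 genes, and limma-voom 0. Adding the replicate number as a block gave 16 calls by edgeR and 244 by DESeq2.

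None of the 8 factors passed the test, although each had a fitted mean above wild type in knockout. Their log2 fold changes, knockout over wild type, ran from 0.02 (Id3) to 0.79 (Satb1), with a median of 0.23 against 0.0039 over all genes tested, of which 50.8% were above 0. In 4 factors, Tcf7, Lef1, Bach2 and Foxo1, every knockout library lay above every wild-type library, an arrangement found in 5.6% of all genes tested. In the other 4 the genotypes overlapped. An unadjusted p under 0.05 with a higher knockout mean was found for 3 of the 8, Satb1, Bach2 and Lef1, and for 2.72% of all genes (5.82% in either direction). The 8 genes were read from the same 6 libraries and are not independent of each other. In bulk libraries a larger share of resting Tregs and more RNA of these factors per cell cannot be told apart. Markers of macrophages, Kupffer cells included, also stood higher in the knockout libraries, at a summed level of 153 to 206 CPM in wild type and 220.4 to 319 CPM in knockout, and their part in these values was not tested.

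**Figure D1:**
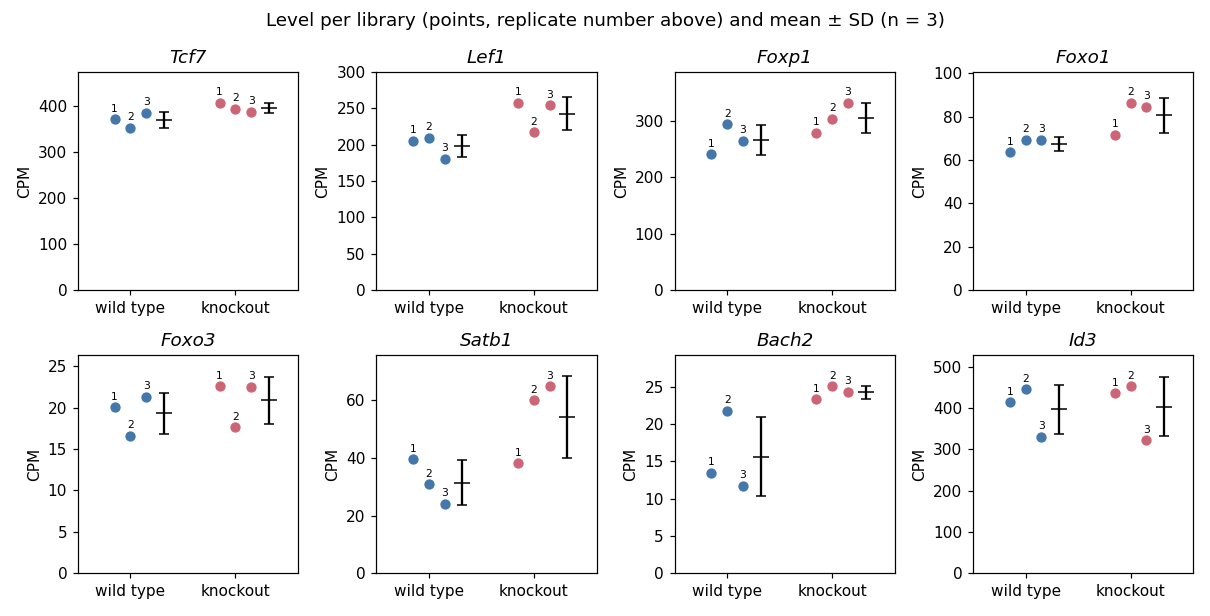
Level of each factor in CPM (vertical axes from 0) in 3 wild-type (blue) and 3 knockout (red) libraries, with replicate numbers above the points and mean ± SD (n = 3) beside them. Bach2 sits between 23.3 and 25.0 CPM in the knockout libraries and between 11.7 and 21.7 CPM in wild type, while the points of Id3 and Foxo3 interleave.

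Tcf7 and Lef1 encode the HMG box pair. Tcf7 (chromosome 11, 52252371 to 52283014, minus strand), whose product TCF1 maintains resting and memory-like T cells, had 371, 353 and 386 CPM in wild-type libraries 1, 2 and 3 and 407, 394 and 387 CPM in knockout libraries 1, 2 and 3. The lowest knockout library lay just above the highest wild-type library, so the groups did not overlap but nearly touched. The log2 fold change was 0.10 ± 0.10 (SE), and its 95% interval reached from 0.917-fold to 1.25-fold. Tcf7 was also the steadiest of the 8 genes, with a coefficient of variation of 4.46% among wild-type and 2.50% among knockout libraries. Lef1 (chromosome 3, 131110471 to 131224356, plus strand), the partner that acts with TCF1 in T cell development, had 206, 209 and 181 CPM in wild type and 257, 217.1 and 254 CPM in knockout. Library 2 was the lowest of the knockouts and the highest of the wild types, and the groups did not overlap. The log2 fold change of Lef1 was 0.29 ± 0.12 (SE), or 1.22-fold with a 95% interval from 1.02 to 1.47, at an unadjusted p of 0.0363 and an adjusted p of 0.842 (edgeR, Benjamini-Hochberg). An antisense gene, Gm43352, shares 1208 bases (13.75%) of the Lef1 exons, and at 1.88 and 2.11 CPM its reads could not be told from those of Lef1 if counting ignored strand.

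Among the forkhead genes, Foxo1 separated the genotypes and Foxo3 did not. Foxo1 (chromosome 3, 52268336 to 52353221, plus strand), which drives expression of lymph node homing receptors in naive T cells, had 63.6, 69.2 and 69.5 CPM in wild type and 71.5, 86.3 and 84.5 CPM in knockout. Knockout library 1 was close to the wild types and the other two stood clear of them. The log2 fold change was 0.26 ± 0.14 (SE), 1.20-fold with a 95% interval from 0.968 to 1.48, and the adjusted p was 0.894 (edgeR, Benjamini-Hochberg). Foxo3 (chromosome 10, 42181841 to 42276755, minus strand), a close relative that shares many targets with Foxo1, had 20.04, 16.6 and 21.3 CPM in wild type and 22.6, 17.6 and 22.5 CPM in knockout. Library 2 was the lowest of either genotype, and the ranges overlapped. Its 95% interval, from 0.782-fold to 1.498-fold, leaves room for a change in either direction. Foxp1 (chromosome 6, 98925338 to 99522721, minus strand), which holds naive T cells in quiescence, had 240.2, 294 and 264 CPM in wild type and 279, 303 and 331 CPM in knockout. Wild-type library 2 lay above knockout library 1, and the log2 fold change was 0.19 ± 0.12 (SE) with a 95% interval from 0.949-fold to 1.38-fold.

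Bach2 and Satb1 had the largest fold changes of the 8. Bach2 (chromosome 4, 32238804 to 32586108, plus strand), a repressor that limits effector differentiation of Tregs and other T cells, had 13.5, 21.7 and 11.7 CPM in wild type and 23.3, 25.0 and 24.3 CPM in knockout. The knockout libraries lay close together, with a coefficient of variation of 3.60% against 34.2% in wild type, and wild-type library 2 came near to them. The log2 fold change was 0.63 ± 0.26 (SE), or 1.55-fold with a 95% interval from 1.04 to 2.30, at an unadjusted p of 0.0333 and an adjusted p of 0.842 (edgeR, Benjamini-Hochberg). The antisense gene Bach2os shares 537 bases of the Bach2 exons and averaged 0.112 and 0.576 CPM. Satb1 (chromosome 17, 51736187 to 51833290, minus strand), a chromatin organiser needed in the thymus for Treg development, had 39.5, 30.7 and 24.0 CPM in wild type and 38.0, 59.8 and 64.7 CPM in knockout. Knockout libraries 2 and 3 stood above all others, and knockout library 1 lay below wild-type library 1. The log2 fold change was 0.79 ± 0.24 (SE), or 1.73-fold with a 95% interval from 1.18 to 2.52, at an unadjusted p of 0.00934 and an adjusted p of 0.842 (edgeR, Benjamini-Hochberg). Over the 14 alternative settings tried, the fold change of Satb1 ran from 0.61 to 0.99 on the log2 scale and its adjusted p from 0.0884 to 1. Without wild-type library 3 the log2 fold change of Bach2 was 0.45, and without wild-type library 2 it was 0.93.

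Id3 (chromosome 4, 136143497 to 136145755, plus strand), the inhibitor of E proteins that marks less differentiated Tregs, had 414, 445 and 331 CPM in wild type and 436, 452 and 322 CPM in knockout. Library 3 was the lowest of each genotype and the ranges overlapped almost fully. The log2 fold change was 0.02 ± 0.16 (SE), with a 95% interval from 0.796-fold to 1.30-fold. The sign of that fold change turned when wild-type library 3 or knockout library 1 or 2 was left out.

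**Figure D2:**
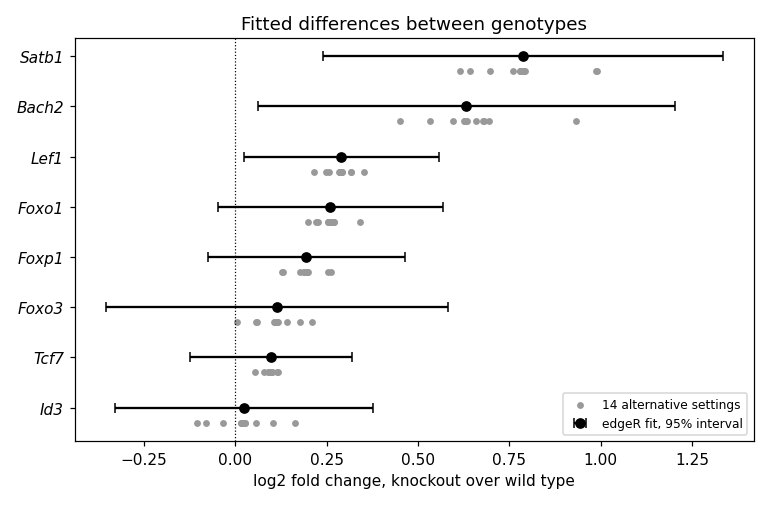
Fitted log2 fold change, knockout over wild type, with its 95% interval for each factor (black) and the values under 14 alternative settings (grey, just below). The intervals of Satb1, Bach2 and Lef1 lie above 0 before adjustment for the number of genes tested, and the alternative values of Id3 fall on both sides of 0.

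Libraries carrying the same replicate number deviated together across genes, although no label states that they share a batch. The factors were therefore also set side by side within a number, as log2 ratios of CPM without a test. Knockout was higher in 22 of 24 such pairs of values, and in all 3 numbers for 6 of the 8 genes. The same count was not made over all genes, and the 8 genes come from the same libraries. These counts therefore have no background to be judged against. For Tcf7, Lef1, Bach2 and Foxo1 every pair had to be higher, because all knockout libraries lay above all wild-type libraries. For these genes the counts repeat that earlier result. The exceptions were Satb1 in number 1 (-0.05) and Id3 in number 3 (-0.04). For Satb1 the ratios in numbers 2 and 3 were 0.96 and 1.43. For Bach2 they were 0.79, 0.20 and 1.05 in numbers 1, 2 and 3, and for Lef1 0.32, 0.05 and 0.49. With the replicate number as a block, none of the 8 passed either.

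The 3 knockout libraries did not carry the same factors at their highest. With each gene's log2 CPM centred on its own mean, the average over the 8 factors was -0.13, -0.07 and -0.26 in wild-type libraries 1, 2 and 3 and 0.10, 0.17 and 0.19 in knockout libraries 1, 2 and 3. Knockout library 1 had the highest Tcf7 and Lef1 but a Satb1 deviation of -0.08, while knockout library 3 had the highest Satb1 (0.68) and Foxp1 (0.22) and the lowest Id3 (-0.30). Wild-type library 3 had the lowest Satb1 (-0.75), Bach2 (-0.70) and Lef1 (-0.28) of all 6 libraries. In that library only Tcf7 and Foxo3 lay above their own means.

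**Figure D3:**
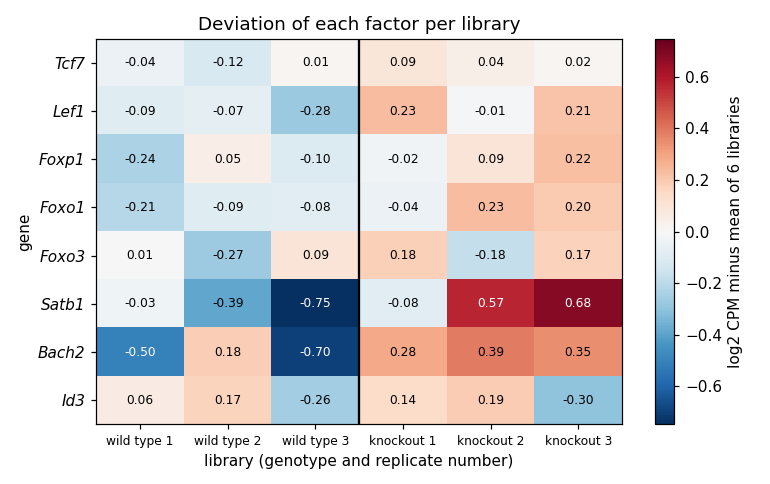
Log2 CPM of each factor (rows) in each library (columns) minus its mean over the 6 libraries, with wild type left of the line and knockout right of it. Blue cells gather on the left and red cells on the right, with Satb1 and Bach2 spanning the widest range (from -0.75 to 0.68 for Satb1).

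Levels of different genes were compared only per length, as CPM per kilobase of merged exon. On that scale Id3 led at 221 ± 32.9 in wild type and 225 ± 39.7 in knockout, followed by Tcf7 at 141 ± 6.29 and 151 ± 3.77. Lef1 (22.6 ± 1.74 in wild type) and Foxp1 (19.3 ± 1.94) came next and their wild-type libraries overlapped. Foxo1 followed at 7.78 ± 0.383 and Foxo3 at 2.55 ± 0.325 CPM per kilobase, so Foxo1 was the more abundant of the FOXO pair in every library. Satb1 (1.65 ± 0.408) and Bach2 (1.57 ± 0.538) were the lowest in wild type, with overlapping libraries. In knockout Satb1, at 2.85 ± 0.746, and Foxo3, at 2.76 ± 0.374, had changed places with overlapping libraries, and Bach2 stayed last at 2.44 ± 0.0877 CPM per kilobase.

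**Figure D4:**
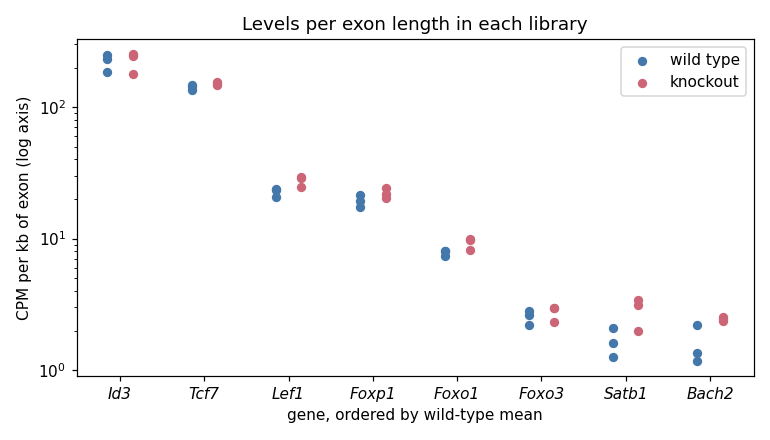
CPM per kilobase of merged exon (log axis) of each factor in the wild-type (blue) and knockout (red) libraries, ordered by the wild-type mean. Id3 and Tcf7 lie between 134.5 and 252.6 CPM per kilobase, far above the other 6 genes, with Foxo3, Satb1 and Bach2 at the low end.

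The windows upstream of the RefSeq starts of the 8 genes (GRCm38.p6, 18 windows of 250 bases) were searched on both strands for motifs of these same factor families, as a description. The TCF/LEF core TCAAAG was found in 3 of 18 windows, those of Bach2, Foxp1 and Lef1, and in 13.83% of all 32851 windows of that length. The E-box CAGNTG, which E proteins bind when ID3 does not hold them, was found in 6 of 18 windows and in 44.82% of all. The FOXO motif GTAAACA and the BACH/AP-1 motif TGANTCA were in 0 of 18 windows, against 3.17% and 6.75% of all. The motifs as spelled do not contain one another. Of the 3 windows with the TCF/LEF core, those of Bach2 (chr4:32417185-32417434, plus strand) and Lef1 (chr3:131156044-131156293, plus strand) are shown, because the genotypes did not overlap for these genes. Each of these windows lies inside the span of its gene, upstream of an internal start. Both are clear of annotated exons and are written 5′ to 3′ with the core in capitals, 1 match in Bach2 and 2 in Lef1.
Bach2: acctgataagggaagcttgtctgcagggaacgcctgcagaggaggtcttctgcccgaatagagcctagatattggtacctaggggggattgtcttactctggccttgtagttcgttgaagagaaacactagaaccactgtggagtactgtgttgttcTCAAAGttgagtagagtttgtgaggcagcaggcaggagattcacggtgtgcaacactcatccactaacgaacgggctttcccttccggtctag
Lef1: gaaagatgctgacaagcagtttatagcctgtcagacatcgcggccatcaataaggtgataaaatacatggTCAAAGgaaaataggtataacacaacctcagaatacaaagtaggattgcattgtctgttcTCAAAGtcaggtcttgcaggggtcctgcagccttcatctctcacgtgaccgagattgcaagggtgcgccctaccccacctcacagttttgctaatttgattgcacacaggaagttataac
These letters say nothing of whether a factor was bound there.

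Genes tied to the factors were read from lists chosen with earlier results of these data known, and 0 genes of any list passed an adjusted p of 0.05 (edgeR, Benjamini-Hochberg). Counts with an unadjusted p under 0.05 can be set against 2.72% of all genes higher and 3.1% lower in knockout. Of 12 surface and marker genes of resting T cells, 10 were higher and 2 lower in knockout by their means, the median log2 fold change was 0.75, and 9 higher genes and 1 lower gene had such a p. Ccr7, the chemokine receptor for lymph node entry, had 194, 275 and 203 CPM in wild type and 297, 406 and 455 CPM in knockout, without overlap. Igfbp4, a secreted protein that binds insulin-like growth factors, had 5.59, 6.38 and 2.03 CPM in wild type and 15.8, 25.8 and 28.7 CPM in knockout. Igfbp4 was lowest in wild-type library 3, as were Satb1, Bach2 and Lef1, and Ccr7 in wild-type library 1.

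Of 18 FOXO target genes of T cells, 10 were higher and 8 lower in knockout, the median log2 fold change being 0.14. Several of them, Ccr7 and Il7r included, are also in the resting list. An unadjusted p under 0.05 was found for 4 higher genes and 1 lower gene. All of these also stand in the resting list or among the other quiescence factors below, so the counts of these lists are not separate. The lower gene was Il7r, the interleukin-7 receptor chain and a FOXO1 target, at 252.6, 257 and 232 CPM in wild type and 209, 197 and 188 CPM in knockout, so that it lay on the other side from Ccr7. The 14 genes that control FOXO proteins through PI3K and AKT had 6 higher and 8 lower means, a median of -0.01 and 0 genes with such a p. Sgk1, a kinase that phosphorylates FOXO proteins, averaged 9.85 ± 3.71 CPM in wild type against 16.6 ± 6.86 CPM in knockout, and Phlpp1, a phosphatase of AKT, 34.3 ± 3.72 and 27.1 ± 3.08 CPM. Xpo1, the exportin that carries FOXO proteins out of the nucleus, averaged 80.2 ± 26.8 and 60.5 ± 8.09 CPM. Of 10 other forkhead genes 4 were higher and 6 lower, with a median of -0.05 and 0 genes with such a p; Foxj3 averaged 20.5 ± 1.84 and 26.7 ± 7.27 CPM and Foxk1 6.40 ± 1.70 and 9.10 ± 1.81 CPM.

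The partners of TCF1 and LEF1 divided evenly, with 8 of 16 higher and 8 lower in knockout, a median log2 fold change of -0.04, and 1 lower gene with an unadjusted p under 0.05. That gene was Ctnnb1, which encodes beta-catenin, at 38.9, 34.0 and 33.6 CPM in wild type and 25.0, 26.2 and 26.2 CPM in knockout. Its genotypes did not overlap, and its log2 fold change was -0.46 ± 0.16 (SE). The corepressor deacetylase Hdac3 averaged 113 ± 12.4 and 98.7 ± 15.8 CPM, and Csnk1a1, a kinase of the beta-catenin destruction complex, 603 ± 39.2 and 553 ± 24.0 CPM. Of 3 E protein and ID genes tested, 0 were higher and 3 lower, among them Id2, the relative of Id3 that effector Tregs express, at 273 ± 47.5 CPM in wild type against 237 ± 23.8 CPM in knockout. Tcf3 averaged 17.3 ± 1.77 and 14.5 ± 2.63 CPM and Tcf12 42.0 ± 10.6 and 35.1 ± 8.41 CPM, both encoding E proteins.

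Of 13 partners and opponents of BACH2, 11 were higher and 2 lower in knockout (median log2 fold change 0.21), with 1 higher gene with an unadjusted p under 0.05. That gene was Hmox1, haem oxygenase, a known target of BACH repressors, at 35.5, 34.8 and 35.8 CPM in wild type and 47.0, 49.9 and 54.4 CPM in knockout. Jun, an AP-1 subunit, ranged from 16.0 to 107 CPM in wild type and from 36.7 to 345 CPM in knockout, and Junb averaged 538 ± 290.4 and 1033 ± 643 CPM, with overlap in both. The 9 partners and relatives of SATB1 had 5 higher and 4 lower means, a median of 0.04 and 0 genes with such a p; Chd4 averaged 171 ± 13.1 and 189 ± 25.6 CPM, Ctcf 68.5 ± 4.90 and 61.5 ± 8.60 CPM, and Mta2 302 ± 19.2 and 323 ± 24.0 CPM. Of 20 other quiescence factors, some of them also FOXO targets, 15 were higher and 5 lower, with a median of 0.15 and 4 higher genes with an unadjusted p under 0.05. Tsc22d3, the glucocorticoid-induced leucine zipper gene, averaged 231 ± 86.5 CPM in wild type against 394 ± 113 CPM in knockout. Tsc1, a brake on mTORC1, averaged 14.3 ± 3.45 and 23.1 ± 3.97 CPM, and Klf2, which maintains naive T cell trafficking, 14.6 ± 2.68 and 24.4 ± 10.3 CPM.

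Among factors and receptors of effector Tregs, 12 of 18 had lower means in knockout and 6 higher ones (median log2 fold change -0.12), with 1 lower gene with an unadjusted p under 0.05. That gene was Nfil3, at 47.2, 36.8 and 34.8 CPM in wild type and 33.1, 20.1 and 16.6 CPM in knockout, without overlap. Hif1a averaged 534 ± 10.9 and 446 ± 62.7 CPM and Klrg1, a surface receptor of differentiated Tregs, 74.3 ± 5.14 and 53.8 ± 20.2 CPM. Prdm1, the BLIMP1 gene that BACH2 represses, averaged 40.5 ± 28.0 and 43.4 ± 4.61 CPM.

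**Figure D5:**
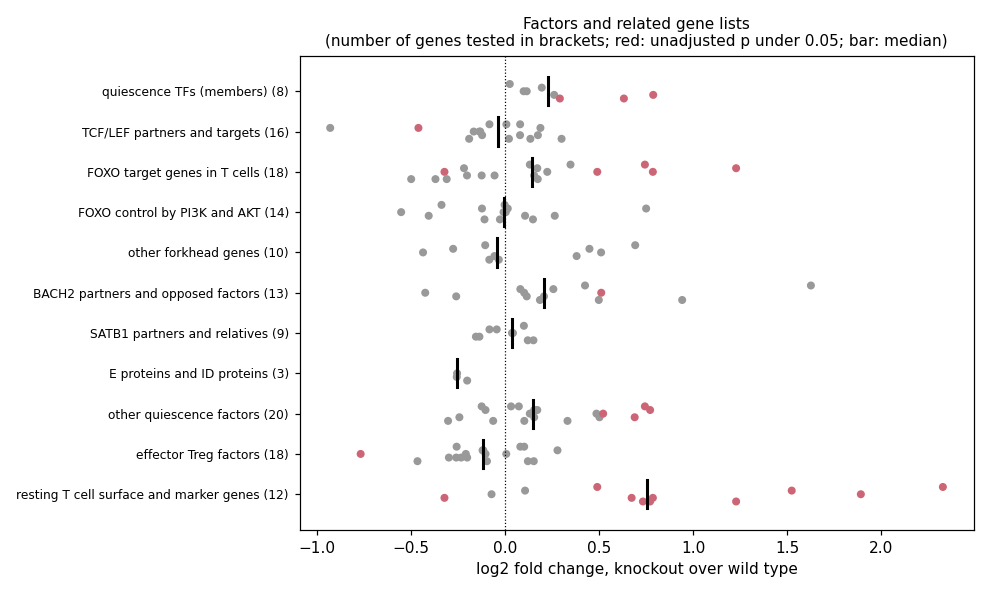
Log2 fold change, knockout over wild type, of each gene tested in the 8 factors and in the related lists, with a bar at each median and red points for an unadjusted p under 0.05. The factors all lie right of 0 with a median of 0.23, the resting markers reach furthest right with a median of 0.75, and the effector factors have a median of -0.12.

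The 5 genes most like the mean profile of the 8 factors, by the smallest root mean square difference of centred log2 CPM over the 6 libraries among 8064 genes averaging at least 10 CPM, were Dusp12 (0.0231), Adgre5 (0.0406), Tollip (0.0514), Slc29a1 (0.0539) and Pigh (0.0566). The median gene differed by 0.256. Adgre5, which encodes the leukocyte surface protein CD97, averaged 83.3 ± 7.56 CPM in wild type against 104 ± 1.64 CPM in knockout. Among the factors themselves Lef1 (0.0936), Foxo1 (0.100) and Foxp1 (0.107) lay closest to the mean profile and Satb1 (0.362) furthest from it. Satb1 and Bach2 (0.290) differed from that profile by more than the median gene did. Id3 (0.238) and Foxo3 (0.227) came near to the median gene, so the mean profile does not stand for every factor.

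Transcripts of other cells moved in the same libraries. Of 11 macrophage and Kupffer cell markers tested, 10 were higher in knockout by their means and 6 of these had an unadjusted p under 0.05. The summed level of the macrophage and Kupffer cell markers was lowest in library 3 among the wild types and in library 1 among the knockouts. Clec4f, a defining Kupffer cell marker, was not analysed here, and Vsig4 averaged 0.554 and 1.09 CPM. Markers of NK cells and of CD8 and gamma delta T cells summed to between 47.4 and 53.6 CPM in wild type and between 66.7 and 74.9 CPM in knockout, with 6 of 7 higher, and Cd8b1 averaged 13.0 ± 2.88 and 16.6 ± 5.71 CPM. Only Tyrobp, at 10.9 ± 1.73 and 19.0 ± 5.47 CPM, had an unadjusted p under 0.05, so the sum does not measure these cells as a group. The B and plasma cell markers, cells in which Bach2 and Foxp1 are also expressed, summed to between 2751 and 3803 CPM in wild type and between 2405 and 3209 CPM in knockout, with 4 higher and 4 lower. Nearly all of that sum was Ighm, at 3027 and 2788 CPM. Dendritic cell markers summed to between 143 and 151 CPM in wild type and between 120 and 143 CPM in knockout, with 1 higher and 3 lower. Most of that sum was the single gene Bst2, at 131 ± 6.90 and 119 ± 15.2 CPM, so the sum does not measure dendritic cells as a group. Of hepatocyte and liver endothelial markers only Pecam1 and Stab2 were tested, and Pecam1, which T cells also express, averaged 110.1 ± 14.8 and 149 ± 9.16 CPM. Of 10 Treg and CD4 T cell markers 6 were higher and 4 lower, with 3 higher at an unadjusted p under 0.05, led by Lrrc32, Il2ra and Cd4.

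The authors' deposited table calls 0 of the 8 factors at an adjusted p of 0.05, against 247 of all its genes (1.81%). In the authors' deposited table the factor nearest to that threshold was Satb1, at an adjusted p of 0.0834 with a log2 fold change of 0.78, knockout over wild type. Next in the authors' deposited table were Bach2, at an adjusted p of 0.244 with a log2 fold change of 0.68, and Lef1, at 0.323 with 0.29. The deposited log2 fold change of Bach2 was 0.6775, beside 0.6778 by DESeq2 with the replicate block and 0.6287 without it. For Id3 these values were 0.0152, 0.0154 and 0.0205. DESeq2 called 244 genes with the block and 49 without it, beside the 247 deposited calls. Whether the authors used such a block was not tested.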

How the data were processed

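Per the labels' protocols, RNA came from a Qiagen RNeasy Micro extraction and was turned into SMARTer mRNA libraries. Build mm10 and the tools STAR, cutadapt and DESeq2 appear in the submitters' processing notes; for annotation, counter, versions and strand use, the status is: not given in the sources used here. The authors deposited 1 table of counts, whole numbers whose library totals differ, which were taken as raw. Beside the counts stand, per the file headers, a mean normalized signal, a Wald score, a log2 fold change, its standard error, a p-value and its adjusted form, all from the authors. The lowest deposited mean was 5.96, so totals cover listed genes only. In 18 rows, at most 0.3078% of a library, the gene name had become a date; they were left out, leaving 13605 genes.

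The test was that of edgeR 4.0.16 under R 4.3.3 (TMM, filterByExpr, quasi-likelihood F test, genotype only), with Benjamini-Hochberg adjustment over 12789 genes. CPM used TMM-scaled library sizes, and centred log2 CPM a prior count of 2. SE is the fold change over the square root of F, and 95% intervals use the test's degrees of freedom. Alternatives used DESeq2 1.42.0, limma 3.58.1, other scalings and filters, a replicate block, and leaving out each library. Same-numbered libraries deviated together (r = 0.403, 0.232 and 0.173 over 8072 genes). This is why the numbers were taken to pair the samples in the ratios within a number and in the replicate block. Libraries with different numbers gave r from -0.309 (wild type 1, knockout 2) to 0.128 (wild type 3, knockout 2). No label states a shared batch or litter, and the main test did not use the pairing. Chi-square values per gene between same-genotype libraries (40.4 to 73.0) were far above sampling noise, so each counted as 1 replicate. On simulated counts of 12408 genes for this comparison, 50 genes each were given true changes of 1.5-fold, 2-fold, 4-fold and 0.5-fold. They were called in 8%, 36%, 86% and 40% of cases, in that order, beside 8 false calls. The Benjamini-Hochberg threshold loosens when more genes change, and in the real counts the smallest adjusted p was 0.363 (edgeR). These shares can therefore overstate what was callable in the real counts. Gene positions and merged exon lengths came from GENCODE M21 (GRCm38, the assembly of mm10), which matched all 8 genes; upstream windows came from RefSeq (GRCm38.p6).

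The 8 factors were picked by name and not by a threshold on any value, but they and the gene lists were chosen with earlier results of these data known. Named genes were the 8 factors, Foxp3, up to 3 genes per list with the smallest unadjusted p, and the 5 genes nearest to the mean profile (of these, 1 gene is left out and not reported here); Cd3e, Ms4a1, Ighm, Vsig4, Cd8b1 and Prdm1 were added after their values were seen.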

Additional observations from a re-analysis of the deposited data

How the results depend on the processing

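The count of factors called was 0 under all 14 alternatives, and the count of factors higher in knockout was 7 or 8. The number of all genes called moved from 0 to 49 with DESeq2, to 16 with edgeR and the replicate block, and to 244 with DESeq2 and the replicate block, and ran from 0 to 1 when each library was left out in turn; the cause was not tested. The replicate block changed no call among the 8 factors. For Id3 the log2 fold change ran from -0.10 to 0.16 over the fits that left out 1 library, and fell below 0 in 3 of them. The other 7 factors kept a positive fold change under every alternative. Satb1 had an unadjusted p under 0.05 in all 14, and Bach2 and Lef1 in 10 each. With CPM on plain library totals every wild-type mean of the 8 factors moved by less than 1 SD. With 3 libraries per genotype, differences near 1.5-fold were seldom callable in simulated data, so a failed test does not show equal levels.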
